A study of Mus musculus with 4 samples.

Results

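The genes described here encode the heterogeneous nuclear ribonucleoproteins (hnRNPs) of the A, C, D, F and H classes: *Hnrnpa0*, *Hnrnpa1*, *Hnrnpa2b1*, *Hnrnpab*, *Hnrnpc*, *Hnrnpd*, *Hnrnpdl*, *Hnrnpf*, *Hnrnph1* and *Hnrnph2*. They were taken as a list of gene symbols. All 10 were found among the 56748 gene IDs of the files, all 10 had reads in every library, and all 10 were among the 8670 genes that passed the filter on low counts.

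The 4 libraries are nanopore direct RNA libraries of C2C12 cells, an established mouse myoblast line of wild-type genotype. In 2 of them the cells carried a cocktail of 3 shRNAs against *Hnrnpl*, and in the other two a scrambled shRNA. Both groups also carried the eGFP reporter of the shRNA plasmids and had been selected with puromycin. The libraries of a group came from different passages of 1 selected stable line, so p-values measure the spread between passages and not between independently made lines. The labels give 2 batches, each with 1 scrambled library (scrambled 1 or 2) and 1 knockdown library (knockdown 1 or 2). The libraries held 1229424 to 1676911 reads counted on genes. Levels are given as CPM, the reads of a gene scaled to the same total of counted reads in each library, and a count of 0 (limit of 3 counts) allows 1.79 to 2.44 CPM. In all libraries, 56.5% to 57.8% of the reads had been counted on a gene.

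hnRNPs are abundant RNA-binding proteins that coat nascent transcripts and take part in splicing, export, stability and translation of mRNA. hnRNP A and B proteins pair RNA recognition motifs with a glycine-rich tail and are known as splicing repressors, hnRNP C binds uridine tracts, hnRNP D binds AU-rich elements, and hnRNP F and H proteins bind runs of guanosines. hnRNP L, the protein whose transcript the shRNAs target, binds CA-rich RNA and is known for cross-regulating splicing factor transcripts, including its own. In muscle cells several of these proteins act on the splicing or stability of transcripts used in differentiation.

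The targets of the 3 shRNAs are shown first, because a partial match in another hnRNP transcript would bear on the comparison. All 3 lie in the coding part of *Hnrnpl* on the forward strand of chromosome 7 (GRCm39). Target 1 lies in exon 2 at chr7:28512764-28512784, target 2 crosses the junction of exons 3 and 4 from 28513501 to 28513516 and from 28513627 to 28513631, and target 3 lies in exon 8 at chr7:28518269-28518289. Exons are those of the Ensembl canonical transcript of 13 exons, the transcript the annotation marks as representative. Capitals mark bases 14 to 20 of the 21-base target, which pair with bases 2 to 8 of a guide strand that starts opposite the last target base.
*Hnrnpl* shRNA 1: attgacggagtagTGGAAGCt
*Hnrnpl* shRNA 2: ctactccataaccACGGATGt
*Hnrnpl* shRNA 3: atggtctatggctTGGATCAa

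None of the 343 annotated transcripts of the 10 genes held a full target. The best match of target 1 had 6 mismatches, in *Hnrnpa1* and *Hnrnpf*, that of target 2 had 8 mismatches, and that of target 3 had 6 mismatches, in *Hnrnpc*. The capital stretch of target 1, TGGAAGC read on the transcript strand, was in 5 of the 10 canonical transcripts (*Hnrnpa0*, *Hnrnpa1*, *Hnrnpab*, *Hnrnpd* and *Hnrnph1*), against 37.7% of 14521 canonical protein-coding transcripts of like length (1805 to 7707 bases). That of target 2, ACGGATG, was in 2 (*Hnrnpa0* and *Hnrnpd*), against 8.83%, and that of target 3, TGGATCA, was in 1 (*Hnrnpd*), against 23.7%. Such matches are a description of the letters and not sites of cleavage.

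The second kind of sequence shown is the CA run, the kind of RNA that hnRNP L binds. ACACACAC, searched on the transcript strand with overlapping matches counted, was in the canonical transcripts of 2 of the 10 genes, against 19.3% of the 14521 transcripts. It was at 2 overlapping positions of *Hnrnpa0* and at 1 of *Hnrnpf*, both in the 3′ UTR. The run of *Hnrnpa0* spans bases 1310 to 1321 of its transcript and that of *Hnrnpf* bases 4962 to 4971. Capitals mark the run.
*Hnrnpa0*: ggcccCACACACACACAttttt
*Hnrnpf*: gctggCACACACACAgtaag

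The other 8 canonical transcripts do not hold these letters, which says nothing of where hnRNP L binds. *Hnrnpa0* overlapped between the groups and *Hnrnpf* did not (values below).

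The labels were checked on *Hnrnpl* itself, which had 358 and 656 reads in the 2 scrambled libraries against 242 and 258 in the 2 knockdown libraries. It fell by 0.78 on the log2 scale (SE 0.18, adjusted p = 0.0112, edgeR's quasi-likelihood test with Benjamini-Hochberg adjustment). In 12 alternative settings its adjusted p ranged from 3.27e-05 to 0.0670 and was under 0.05 in 10, and without scrambled 2 the log2 fold change was -0.48 (adjusted p = 0.194) and without knockdown 1 it was -0.62 (adjusted p = 0.150). Markers of the labelled cell type differed between the groups. The 11 myoblast markers summed to 726 and 863 CPM in scrambled against 536 and 418 CPM in knockdown, with 3 of the 7 tested markers lower after adjustment (*Cdh15*, *Chrna1* and *Des*), against 3.44% of all tested genes, *Pax7* and *Cav3* at 0 in all libraries and *Myod1* at 1 read in all 4 together. Of 14 markers of differentiated muscle 11 were at 0 in all libraries, and the summed level was 7.27 to 13.7 CPM. Fibroblast markers summed to 4.07 to 7.93 CPM and macrophage markers to 1.79 to 3.25 CPM. *Des* had a log2 fold change below 0 in all 12 alternative settings and all 4 fits without a library. Its adjusted p was under 0.05 in 9 of the 12 and 1 of the 4, and it was 0.0526 with the replicate block. The part of the lower myoblast markers in the values below was not tested. In these bulk libraries fewer cells of a type and less RNA per cell cannot be told apart.

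None of the 10 genes passed an adjusted p of 0.05, where 5.95% of the 8670 tested genes did (2.51% higher in knockdown and 3.44% lower). Counting the authors' extra thresholds (absolute log2 fold change over 0.5 and mean normalized count over 10), again none passed, against 5.55% of all genes (2.33% higher and 3.22% lower). At an unadjusted p of 0.05 there were 4, with *Hnrnpa2b1*, *Hnrnpd* and *Hnrnpf* higher and *Hnrnph1* lower, against 21.8% of all genes (10.3% higher and 11.5% lower). With DESeq2 (Wald test, local fit) there were 2 at an unadjusted p of 0.05, *Hnrnpa2b1* and *Hnrnph1*, against 11.6%, and 0 after adjustment, against 2.79%. With the batch number as a replicate block in edgeR, *Hnrnpa2b1* alone had an unadjusted p under 0.05, against 20.6% of all genes, and 0 passed after adjustment, against 5.81%. In each fit without 1 library, fewer than 4 of the 10 genes passed that unadjusted threshold, and the share of all genes was not counted. In these fits the log2 fold change lay between 0.33 and 0.42 for *Hnrnpa2b1* and between 0.24 and 0.36 for *Hnrnpd*. It lay between 0.23 and 0.36 for *Hnrnpf* and between -0.37 and -0.27 for *Hnrnph1*.

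For 6 of the genes, scrambled and knockdown libraries did not overlap in normalized counts (read counts brought to the mean library size with TMM factors). This was so for 4 genes with higher knockdown libraries (*Hnrnpa1*, *Hnrnpa2b1*, *Hnrnpd* and *Hnrnpf*) and 2 with lower ones (*Hnrnpc* and *Hnrnph1*), where 52.4% of all tested genes had groups that did not overlap (26.4% of all tested genes with knockdown higher and 26.0% with knockdown lower). Within each batch alone, the same 4 genes were higher and the same 2 lower in the knockdown library, against 32.9% and 32.1% of all genes. For these genes that follows from the groups not overlapping and adds no further result. The other genes of the list differed in sign between the batches. The median log2 fold change of the 10 genes was 0.10, and that of all tested genes was -0.00059. In the 10 genes 7 values were above 0, against 49.9% of all genes.

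**Figure D1:**
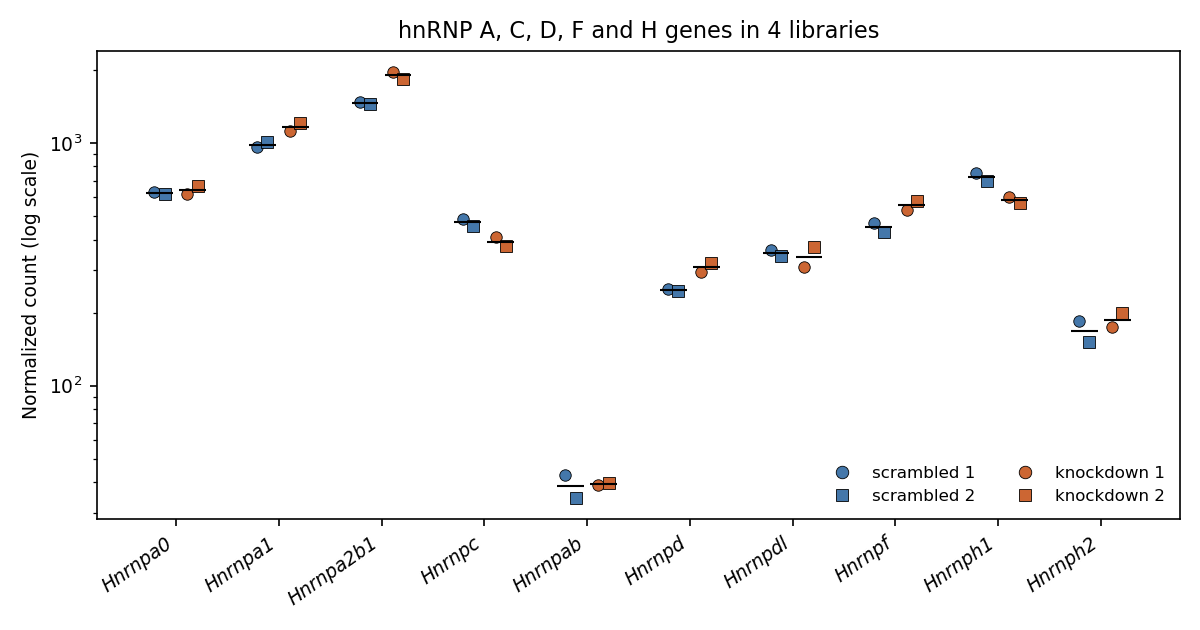
Normalized counts (log scale) of the 10 genes, with scrambled libraries in blue and knockdown libraries in orange, circles for batch 1, squares for batch 2 and bars for the mean of 2 libraries. *Hnrnpa2b1* is highest, with 1468 and 1449 in scrambled against 1958 and 1835 in knockdown, and *Hnrnpab* is lowest, with 34.5 to 42.9 in the 4 libraries.

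The A class has the most abundant genes of the list. *Hnrnpa2b1* (ENSMUSG00000004980.17, chr6:51435248-51448049, reverse strand, 11 exons in the canonical transcript) encodes hnRNP A2 and B1, 2 isoforms known for exon repression, transport of mRNA and binding near methylated adenosines. It had 1402 and 1722 reads in scrambled 1 and scrambled 2, against 1965 and 1570 in knockdown 1 and knockdown 2, or 1458 ± 13.6 normalized counts in scrambled against 1896 ± 86.8 in knockdown (SD, n = 2 each). Both knockdown libraries lay above both scrambled libraries, by 0.42 on the log2 scale in batch 1 and 0.34 in batch 2. The fitted log2 fold change was 0.38 (SE 0.13, 95% interval 0.10 to 0.66, adjusted p = 0.104, edgeR's quasi-likelihood test with Benjamini-Hochberg adjustment). In fold units the interval ran from 1.07 to 1.58. This was the largest fold change of the 10 genes in absolute size and lay above that of 83.2% of all tested genes. Its adjusted p ranged from 0.0441 to 0.801 over the 12 alternative settings. It was under 0.05 in 1 of them, the fit with no filter on low counts, where the log2 fold change was again 0.38. In that fit 740 of all genes had an adjusted p under 0.05, against 516 in the reported fit.

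*Hnrnpa1* (ENSMUSG00000046434.17, chr15:103148339-103155125, forward strand, 10 exons) encodes hnRNP A1, a splicing repressor that shuttles between nucleus and cytoplasm. Its reads were 916 and 1201 in scrambled against 1124 and 1034 in knockdown, and the normalized counts were 985 ± 36.3 and 1164 ± 62.7 (SD, n = 2 each). The groups did not overlap, with a log2 difference of 0.22 in batch 1 and 0.26 in batch 2. The fitted value was 0.24 (SE 0.13, 95% interval -0.04 to 0.52, adjusted p = 0.311, edgeR). *Hnrnpa1* is the gene of the list with the most near copies in the genome. Its canonical transcript had 7 matches elsewhere with at least 90% identity over at least 50% of its length, all of them on annotated pseudogenes, and 4 of them had at least 98% identity. The closest, *Gm10052* (chr9:123517948-123519339), matched 76.9% of the transcript with 99.9% identity and had 62 and 58 reads in scrambled against 50 and 31 in knockdown. The other two copies with reads, *Gm7729* and *Gm5643*, had 2 to 4 and 0 to 2 reads per library. With the reads of all copies added, *Hnrnpa1* had 980 and 1265 reads in scrambled against 1178 and 1067 in knockdown, and the log2 fold change was 0.21 (SE 0.13, adjusted p = 0.378). Between 22.7% and 23.8% of the reads of a library had been set aside by the authors' counting for low mapping quality. How many of them came from *Hnrnpa1* or its copies is not in the counts.

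*Hnrnpa0* (ENSMUSG00000007836.7, chr13:58273693-58276370, reverse strand), a gene of a single exon whose protein is known to bind AU-rich elements, had 597 and 729 reads in scrambled against 619 and 569 in knockdown. The 4 normalized counts, 613 to 665, overlapped between the groups. Its log2 fold change was 0.05 (SE 0.13, 95% interval -0.23 to 0.33, adjusted p = 0.871, edgeR), an interval from 0.852 to 1.26 of the scrambled level in fold units.

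The C class has 1 gene here. *Hnrnpc* (ENSMUSG00000060373.16, chr14:52310561-52341614, reverse strand, 8 exons) encodes the hnRNP C proteins, which form tetramers on nascent RNA and are known for keeping uridine-rich intronic sequences out of mRNA. Reads numbered 465 and 543 in scrambled against 411 and 321 in knockdown, and normalized counts were 472 ± 21.2 and 392 ± 24.3 (SD, n = 2 each). Both knockdown libraries were below both scrambled libraries, by -0.25 on the log2 scale in batch 1 and -0.28 in batch 2. The fitted log2 fold change was -0.26 (SE 0.14, 95% interval -0.55 to 0.02, adjusted p = 0.276, edgeR). Of 2 near copies of its transcript, 1 (*Gm12696*) had a single read, in scrambled 2.

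The D class was taken to hold *Hnrnpd*, *Hnrnpdl* and *Hnrnpab*, whose coding sequences had 69.2% to 71.1% identity of aligned bases in the 3 pairs. Identity of *Hnrnpab* to the A class was 69.8% for *Hnrnpa1*, 60.4% for *Hnrnpa0* and 59.6% for *Hnrnpa2b1*. The alignment of *Hnrnpab* covered 75.9% of the longer coding sequence with *Hnrnpa1*, 85.2% with *Hnrnpd* and 73.6% with *Hnrnpdl*. *Hnrnpd* (ENSMUSG00000000568.16, chr5:100103794-100127029, reverse strand, 8 exons) encodes AUF1, known for binding AU-rich elements and for the decay of mRNAs that carry them, also in myogenic cells. It had 240 and 293 reads in scrambled against 296 and 274 in knockdown, with normalized counts of 249 ± 3.39 and 308 ± 17.9 (SD, n = 2 each). The groups did not overlap. Its log2 fold change was 0.30 (SE 0.14, 95% interval 0.00 to 0.61, adjusted p = 0.225, edgeR), with 0.23 in batch 1 and 0.38 in batch 2.

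*Hnrnpdl* (ENSMUSG00000029328.16, chr5:100179317-100187792, reverse strand, 8 exons), which encodes the hnRNP D-like protein and is known as a limb-girdle muscular dystrophy gene, lies beside *Hnrnpd* on the same strand. It had 346 and 406 reads in scrambled against 309 and 318 in knockdown. Normalized counts of knockdown 1 (308) lay below and those of knockdown 2 (372) above both scrambled libraries (362 and 342), so the batches differed in sign, at -0.23 and 0.12. The fitted log2 fold change was -0.05 (SE 0.15, 95% interval -0.36 to 0.25, adjusted p = 0.874, edgeR).

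*Hnrnpab* (ENSMUSG00000020358.18, chr11:51487363-51510327, reverse strand, 7 exons), which encodes hnRNP A/B or CBF-A, had by far the fewest reads, 41 and 41 in scrambled against 39 and 34 in knockdown. The groups overlapped, and the log2 fold change was 0.03 with the widest interval of the 10 genes (SE 0.26, 95% interval -0.52 to 0.58, adjusted p = 0.962, edgeR). In fold units that interval ran from 0.698 to 1.498 of the scrambled level. *Hnrnpab* ranked 5202 by CPM among 16728 genes with reads, where the other 9 genes ranked between 96 and 1478. It is also the only one of the 10 whose last 100 bases lie wholly inside an exon of a gene on the opposite strand, *Phykpl*, which shares 558 bases (26.8%) of its canonical transcript. *Phykpl* had 12 to 23 reads per library. Between 15.97% and 16.5% of the reads of a library were listed as ambiguous, and the strand setting of the counting is not given in the sources used here. Genes with their last 100 bases in such a place had at least 10 reads in every library in 31.8% of 1577 cases, and genes without in 34.2% of 19460. The part of the overlap in the low count of *Hnrnpab* was not tested.

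The F and H class holds *Hnrnpf*, *Hnrnph1* and *Hnrnph2*, whose proteins bind G runs and are known to act on the same exons. *Hnrnpf* (ENSMUSG00000042079.14, chr6:117877257-117905485, forward strand, 3 exons) had 447 and 513 reads in scrambled against 532 and 492 in knockdown, or 450 ± 25.8 and 553 ± 31.8 normalized counts (SD, n = 2 each). The knockdown libraries were above the scrambled ones, by 0.18 on the log2 scale in batch 1 and 0.41 in batch 2. The fitted log2 fold change was 0.30 (SE 0.14, 95% interval 0.01 to 0.58, adjusted p = 0.210, edgeR).

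*Hnrnph1* (ENSMUSG00000007850.17, chr11:50267127-50277364, forward strand, 13 exons) encodes hnRNP H, a splicing regulator known from myotonic dystrophy. It had 716 and 830 reads in scrambled against 601 and 482 in knockdown, with normalized counts of 724 ± 36.3 and 581 ± 25.1 (SD, n = 2 each). Both knockdown libraries were lower than both scrambled libraries, by -0.32 in batch 1 and -0.31 in batch 2 on the log2 scale. This was the lowest fitted value of the list, at -0.32 (SE 0.13, 95% interval -0.60 to -0.03, adjusted p = 0.175, edgeR), or 0.803 of the scrambled level with an interval from 0.661 to 0.976.

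*Hnrnph2* (ENSMUSG00000045427.14, chrX:133501878-133507810, forward strand, 4 exons) is the X-linked relative of *Hnrnph1*, with 85.4% identical bases over their aligned coding sequences. It had 176 and 180 reads in scrambled against 175 and 170 in knockdown. The normalized counts of scrambled (184 and 151) and knockdown (174 and 199) overlapped, and the batches differed in sign, at -0.08 and 0.39. Its log2 fold change was 0.15 (SE 0.16, 95% interval -0.19 to 0.50, adjusted p = 0.627, edgeR). It was 0.0071 without scrambled 2 and 0.30 without scrambled 1.

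Apart from *Hnrnpab*, 2 of the genes share a large part of their canonical transcript with exons of a protein-coding gene on the opposite strand. *Hnrnpa2b1* shares 968 bases (33.0%) with *Cbx3*, which had 18 and 25 reads in scrambled against 25 and 29 in knockdown, and *Hnrnpdl* shares 1214 bases (35.1%) with *Enoph1*, which had 91 to 106 reads per library. *Hnrnph1* shares 219 bases (9.08%) with *Rufy1* (26 to 28 reads), and *Hnrnph2* 27 bases with *Gla* (22 to 37 reads). Without the strand setting, reads of such partners cannot be told apart with certainty. The part of these overlaps in the counts of the 10 genes was not tested.

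Fold changes differed by chromosome in these libraries, from a median log2 fold change of -0.36 on chromosome 14 to 0.28 on chromosome 6 among the chromosomes of the list. *Hnrnpa2b1* and *Hnrnpf* are both on chromosome 6. The fold change of *Hnrnpf* was above that of 51.2% of the 404 tested genes of that chromosome and that of *Hnrnpa2b1* above 62.9%. Within 5 Mb on each side of *Hnrnpa2b1* the median of 33 other genes was 0.28, and 87.9% of them were above 0. Within 5 Mb of *Hnrnpf* the median of 48 genes was 0.36, and 87.5% were above 0. *Hnrnpc* lay above 62.1% of the 282 genes of chromosome 14, with a median of -0.31 over 53 genes within 5 Mb, of which 11.3% were above 0. *Hnrnpd* and *Hnrnpdl*, on chromosome 5 (median 0.23), lay above 57.1% and 18.2% of its 555 genes. The chromosome medians of the list had the same sign in both batches, with 0.27 and 0.30 for chromosome 6, -0.41 and -0.38 for chromosome 14, 0.16 and 0.23 for chromosome 13, and -0.04 and -0.11 for chromosome X.

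*Hnrnpa1* lay above 85.4% of the 384 genes of chromosome 15, where the median was -0.10. *Hnrnpdl*, as given above, lay low on chromosome 5. *Hnrnph2* was above 77.5% of the 285 genes of chromosome X (median -0.09), and *Hnrnph1*, on chromosome 11 (median -0.11), was above 24.8% of 717 genes. With the median of each chromosome removed in the fit, *Hnrnpa1* had a log2 fold change of 0.35 (unadjusted p = 0.0188, adjusted p = 0.209, edgeR) and was then the only gene of the 10 with an unadjusted p under 0.05, against 14.7% of all genes, and 0 of the 10 passed after adjustment, against 3.48%. In that fit *Hnrnpa2b1* had 0.10, *Hnrnpd* 0.07, *Hnrnpf* 0.02 and *Hnrnph1* -0.21. *Hnrnpdl* had -0.28 (unadjusted p = 0.0679), *Hnrnph2* 0.25 and *Hnrnpab* 0.14, further from 0 than with the medians left in. *Hnrnpc* turned to 0.10 and *Hnrnpa0* to -0.18. The part of the chromosome-wide shifts in the values of single genes was not tested beyond this.

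**Figure D2:**
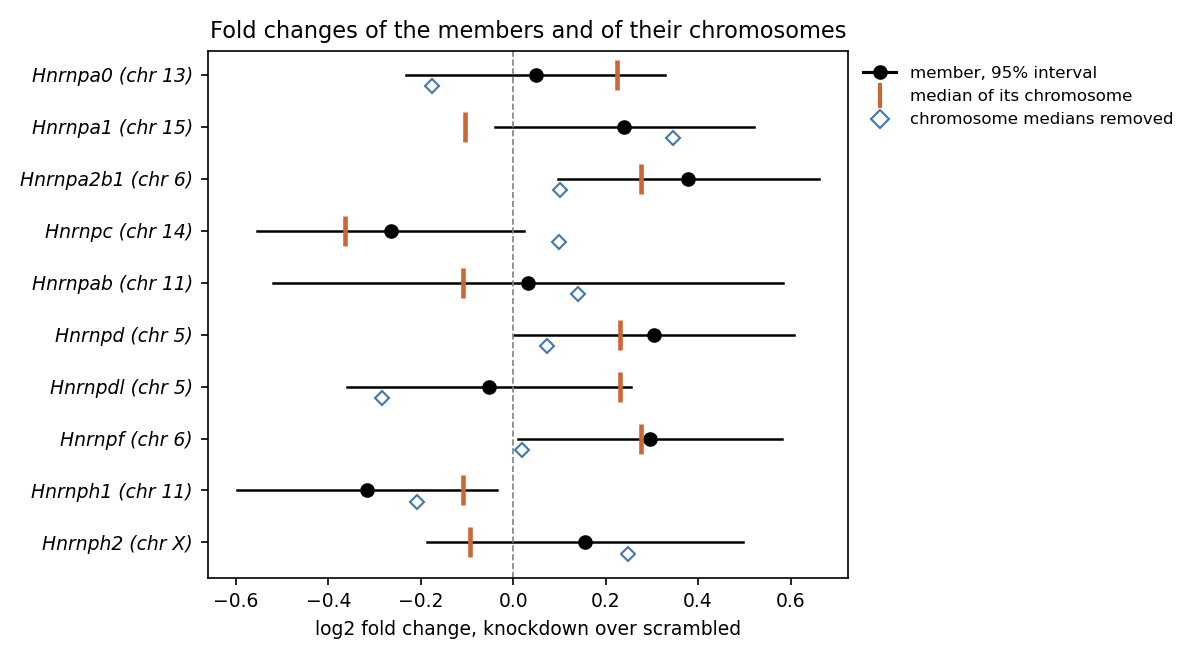
Log2 fold change (knockdown over scrambled) of each gene with its 95% interval (black), the median of all tested genes of its chromosome (orange bar) and its value with chromosome medians removed (blue diamond). The intervals of *Hnrnpa2b1*, *Hnrnpd*, *Hnrnpf* and *Hnrnph1* lie to one side of 0, and with chromosome medians removed *Hnrnpf* sits at 0.02 and *Hnrnpc* at 0.10.

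**Figure D3:**
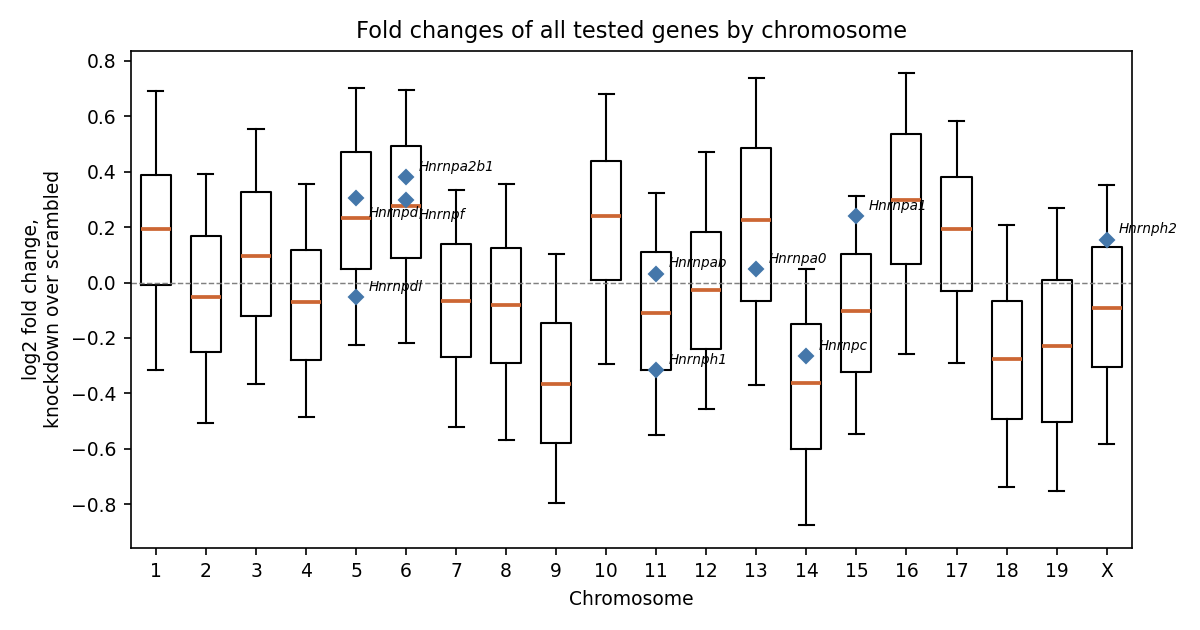
Log2 fold changes (knockdown over scrambled) of all tested genes by chromosome, with boxes from the lower to the upper quartile, orange bars at the median, whiskers from the 10th to the 90th percentile and the 10 genes as blue diamonds. *Hnrnpf* sits close to the median of chromosome 6 (0.28), and *Hnrnpa1* lies above 85.4% of the genes of chromosome 15.

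Since a shift of the scaling moves all genes of a library alike, pairs of related genes were also set against each other within each library. In the F and H class, the scrambled libraries had 0.624 and 0.618 *Hnrnpf* reads per *Hnrnph1* read and the knockdown libraries had 0.885 and 1.02. On the log2 scale this is -0.68 and -0.69 against -0.18 and 0.03, a difference of 0.61, with a gap between the groups wider than the spread within either. The ratio of *Hnrnph1* to *Hnrnph2* was 4.07 and 4.61 in scrambled against 3.43 and 2.84 in knockdown, a log2 difference of -0.47. *Hnrnpf* to *Hnrnph2* differed least in this class, by 0.14 on the log2 scale. The 3 genes lie on 3 chromosomes, so these ratios hold the differences between chromosomes too. The chromosome medians were 0.28 for *Hnrnpf*, -0.11 for *Hnrnph1* and -0.09 for *Hnrnph2*. With chromosome medians removed in the fit, the log2 fold changes of the genes were 0.02, -0.21 and 0.25 in that order. The part of the chromosome-wide shifts in the ratios was not tested.

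*Hnrnpd* and *Hnrnpdl* share a chromosome and lie next to each other. Their ratio was 0.694 and 0.722 in scrambled against 0.958 and 0.862 in knockdown, a log2 difference of 0.36 without overlap. In the A class, *Hnrnpa0* per *Hnrnpa2b1* was 0.426 and 0.423 in scrambled against 0.315 and 0.362 in knockdown (log2 difference -0.33), while *Hnrnpa1* per *Hnrnpa2b1* overlapped between the groups. Of the 9 pairs within the A, D and F and H classes, 7 did not overlap between the groups, where 50.8% of all 37580115 pairs of tested genes did not. The 9 pairs share genes and are not separate observations, so no excess over that share can be read from them. With 2 libraries per group an exact permutation test of a single ratio cannot go below p = 0.333, and none was run.

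**Figure D4:**
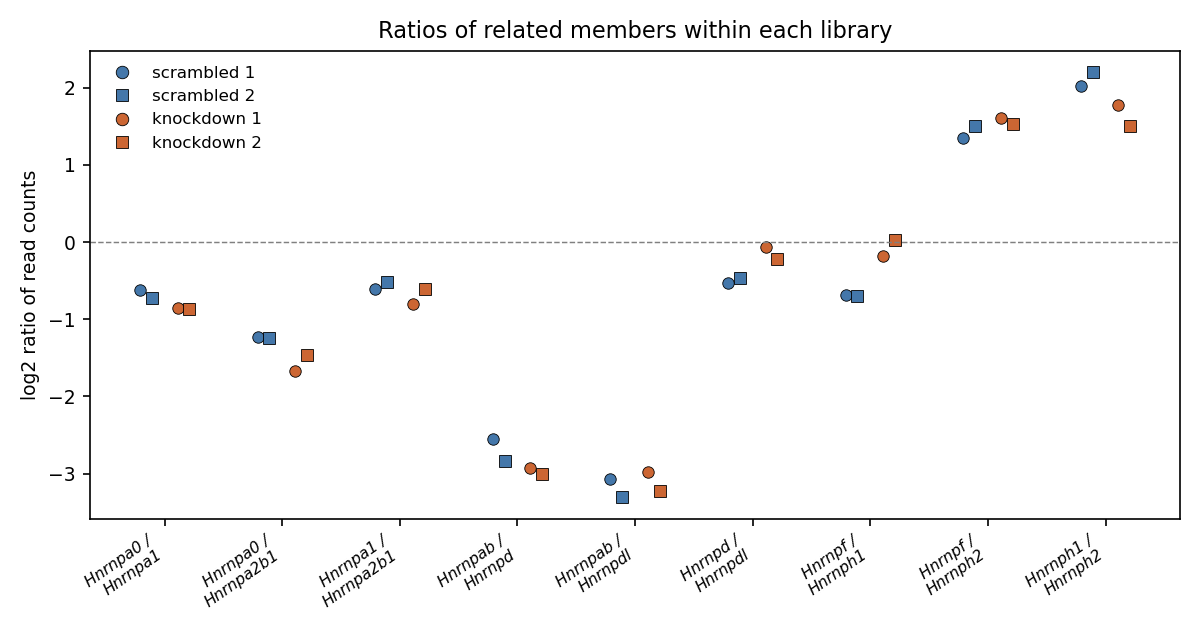
Log2 ratio of read counts of 2 related genes within each library, for the 9 pairs of a class, with scrambled libraries in blue, knockdown libraries in orange, circles for batch 1 and squares for batch 2. *Hnrnpf* per *Hnrnph1* sits at -0.68 and -0.69 in scrambled and at -0.18 and 0.03 in knockdown, and *Hnrnpa1* per *Hnrnpa2b1* overlaps.

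The summed level of the 10 genes was 3853 and 3851 CPM in scrambled against 4416 and 4282 CPM in knockdown, a mean 12.9% higher. Most of this was in the A class, which summed to 2101 and 2178 CPM in scrambled against 2697 and 2581 CPM in knockdown (23.4% higher). Without *Hnrnpa2b1* the sum of the other 9 was 2842 and 2824 CPM against 2987 and 3005 CPM (5.73% higher). Without *Hnrnpa1* as well it was 2182 and 2108 CPM against 2169 and 2164 CPM, which overlap. The F and H class summed to 965 and 908 CPM in scrambled against 952 and 931 CPM in knockdown, also overlapping, with *Hnrnpf* and *Hnrnph1* on opposite sides.

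As shares of the reads of the 10 genes, *Hnrnpa2b1* took 26.2% (95% interval 25.1% to 27.4%) and 26.7% (25.6% to 27.8%) in scrambled against 32.4% (31.2% to 33.6%) and 29.8% (28.6% to 31.1%) in knockdown. *Hnrnph1* took 13.4% (12.5% to 14.3%) and 12.9% (12.05% to 13.7%) in scrambled against 9.90% (9.16% to 10.7%) and 9.16% (8.39% to 9.97%) in knockdown. *Hnrnpc* took 8.70% and 8.41% in scrambled against 6.77% and 6.10% in knockdown. Intervals are exact binomial (Clopper-Pearson) and cover counting error only. For *Hnrnpa2b1*, *Hnrnph1* and *Hnrnpc*, those of the scrambled libraries do not reach those of the knockdown libraries. The shares of a library add up to a fixed whole, so a higher share of *Hnrnpa2b1* by itself lowers the shares of other genes. *Hnrnpa0* took 10.2% to 11.3% in the 4 libraries and *Hnrnpab* 0.635% to 0.767%.

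By CPM per kilobase of the longest annotated transcript, *Hnrnpa1* was highest in scrambled, at 212 and 230, followed by *Hnrnpa2b1* at 184 and 187 and *Hnrnpa0* at 161 and 162. Next in level per kilobase came *Hnrnph1* (113 and 108), *Hnrnpc* (59.2 and 57.2), *Hnrnpf* (46.5 and 44.2), *Hnrnpdl* (45.4 and 44.0), *Hnrnph2* (27.7 and 23.5), *Hnrnpd* (22.4 and 22.7) and *Hnrnpab* (4.74 and 3.92). Only *Hnrnpf* and *Hnrnpdl* overlapped as neighbours in this order. In knockdown the order by the same measure was the same but for *Hnrnpf* (55.9 and 57.8) above *Hnrnpc* (52.8 and 46.1), and the overlapping neighbours were *Hnrnpc* with *Hnrnpdl* and *Hnrnph2* with *Hnrnpd*. Without a length term, which for direct RNA reads means 1 read per molecule, *Hnrnpa2b1* was highest in CPM and ranked 96 among the 16728 genes with reads, and *Hnrnpa1* ranked 170.

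The genes of related function are given for comparison, from lists chosen by role. Of 17 other hnRNP genes 16 were tested, with a median log2 fold change of 0.06. Of these, 11 were higher and 5 lower, where 49.9% of all tested genes were higher, and 2 passed an adjusted p of 0.05, against 5.95% of all tested genes, *Hnrnpk* higher and *Hnrnpl*, the knocked-down gene, lower. *Hnrnpk*, which encodes a C-rich RNA-binding protein, rose from 366 and 466 reads to 536 and 478 (log2 fold change 0.49, SE 0.14, adjusted p = 0.0364, edgeR), on chromosome 13 with a median of 0.23. That call held in 6 of 12 alternative settings, with adjusted p between 0.0224 and 0.372, and in none of the 4 fits without 1 library. With the replicate block its adjusted p was 0.0714, and with chromosome medians removed its log2 fold change was 0.27. *Hnrnpa3*, the A-class gene not on the list of 10, had 56 and 76 reads in scrambled against 85 and 80 in knockdown (log2 fold change 0.53, SE 0.19, adjusted p = 0.112), and *Pcbp2*, of the poly(C)-binding hnRNP E genes, had 54 and 60 against 35 and 24 (-0.75, SE 0.26, adjusted p = 0.0926).

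Of 8 genes for nuclear import, export and arginine methylation 7 were tested, with a median of -0.05. Of these, 1 passed an adjusted p of 0.05, against 5.95% of all tested genes. *Prmt5*, an arginine methyltransferase, fell from 117 and 166 reads to 87 and 74 (log2 fold change -0.60, SE 0.17, adjusted p = 0.0430, edgeR), on chromosome 14 with its median of -0.36. The call held in 5 of 12 alternative settings, with adjusted p between 0.0357 and 0.669, and its log2 fold change was -0.24 once chromosome medians were removed. It did not hold with the replicate block (adjusted p = 0.0515) or without scrambled 2, knockdown 1 or knockdown 2. *Hikeshi*, a nuclear import carrier, had 200 and 221 reads in scrambled against 137 and 141 in knockdown (-0.39, SE 0.16, adjusted p = 0.162), and its log2 fold change was -0.26 without knockdown 1. Of 8 tested AU-rich element binding proteins (median 0.10) and 11 tested m6A writers, readers and erasers (median 0.12), 0 had an adjusted p under 0.05 in edgeR (5.95% of all tested genes) and 0 an unadjusted p under 0.05 (21.8%). Their extremes were *Celf1* (-0.29) and *Tia1* (0.45) in the first list, and *Zc3h13* (-0.56) and *Ythdc1* (0.28) in the second. The lists' medians stood beside -0.00059 for all tested genes.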

How the data were processed

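Direct RNA reads were basecalled by the authors with guppy, mapped to GRCm39 with minimap2 2.17 and counted per gene with HTSeq 0.9.1, as the study and the submitters' processing notes say. The files the authors deposited hold whole, unnormalized counts per gene ID and 5 rows of reads not assigned to a gene, which were left out. Annotation release and strand setting are not given in the sources used here. GENCODE vM39 gave symbols and positions for 56017 of 56748 IDs.

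The test of knockdown against scrambled was the quasi-likelihood test of edgeR 4.0.16 under R 4.3.3, with TMM, filterByExpr and Benjamini-Hochberg adjustment over all 8670 tested genes. SE is the log2 fold change over the square root of F, and intervals use 17.9 to 18.9 degrees of freedom. Chi-square per gene between libraries of a group was 2.55 in scrambled and 2.79 in knockdown. The labels pair libraries by batch, and deviations of same-batch libraries correlated at 0.014 over 3711 genes, so the replicate block served as an alternative. Others were RLE and upper quartile factors, 2 filters, 4 DESeq2 1.42.0 configurations, the robust fit, mitochondrial genes and *Rn18s* left out, chromosome medians removed and each library left out. Adding copy reads and the canonical-length scale were chosen after seeing the data. Near copies were found with minimap2 2.31. The fit was tested on simulated data. The 10 genes and the lists were chosen with earlier results of these data known. Named genes are these 10, *Hnrnpl*, list genes with an unadjusted p under 0.05 (otherwise the list's lowest and highest fold change), overlapping genes and copies with reads. *Pax7*, *Cav3* and *Myod1* were named outside this rule, after their values were seen, as defining markers at or near 0.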

Additional observations from a re-analysis of the deposited data

How the results depend on the processing

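Of the 10 hnRNP genes, 0 passed an adjusted p of 0.05 in the reported fit and in every alternative but one, the fit with no filter on low counts, where 1 passed (*Hnrnpa2b1*). In that fit 740 of all genes passed, against 516 in the reported fit. The count of the 10 genes at an unadjusted p of 0.05 was 4, against 21.8% of all genes. It was 2 with DESeq2's Wald test and local fit (11.6%), 1 with chromosome medians removed (14.7%) and 1 with the replicate block (20.6%). Without single libraries it was 0 to 3. For these fits without 1 library, the share of all genes at that unadjusted threshold was not counted. Signs turned for *Hnrnpa0* (-0.18) and *Hnrnpc* (0.10) with chromosome medians removed. They also turned for *Hnrnpa0* without knockdown 2 (-0.0071), *Hnrnpab* without scrambled 2 (-0.14) and *Hnrnpdl* without knockdown 1 (0.080). Without single libraries *Hnrnpa0* lay between -0.0071 and 0.10, *Hnrnpab* between -0.14 and 0.19, *Hnrnpdl* between -0.19 and 0.080, and *Hnrnph2* between 0.0071 (without scrambled 2) and 0.30 (without scrambled 1). The cause was not tested.

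Over all genes, the count at an adjusted p of 0.05 (516) was 237 and 119 with the DESeq2 Wald test (local and parametric fit), 237 and 117 with the likelihood-ratio test, 302 with chromosome medians removed and 197 (without knockdown 1) to 452 without single libraries. The count past the authors' thresholds (481) was 228 and 115, 222 and 112, 287, and 194 to 433 in the same order. Of the other hnRNP genes (2), 1 passed with either DESeq2 test and the local fit, 0 with the parametric fit, 1 with the replicate block, 1 with chromosome medians removed and 0 to 1 without single libraries. Of the import, export and methylation genes (1), 0 passed with upper quartile factors, the 4 DESeq2 configurations, the replicate block and chromosome medians removed, and 0 to 1 without single libraries. With the replicate block the myoblast marker *Des* also lost its call (adjusted p = 0.0526). The block changed no other call of a gene named here. The rank by level in scrambled changed for 6 of the 10 genes with no length term, for 4 per kilobase of the union of exons and for 4 per kilobase of the canonical transcript, a scale chosen after seeing the data. Depth limits *Hnrnpab* most, with 34 to 41 reads per library and the widest interval.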
